A study of Mus musculus with 2 samples.

Results

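Cyclic AMP (cAMP) is the second messenger through which follicle-stimulating hormone (FSH) acts on granulosa cells, which enclose the oocyte within the follicle of the ovary. The genes described here encode the machinery of that messenger: the adenylyl cyclases that make cAMP, the phosphodiesterases that break it down, the subunits and inhibitors of the cAMP-dependent kinase (protein kinase A), the anchoring proteins that hold the kinase in place, the RGS proteins that switch G proteins off, the Rap exchange factors, the peptide PACAP with its receptor, and the transcription factors Creb1, Crem and Atf1. They were chosen by gene symbol. The symbol rule found 59 probes for 59 genes among 20868 probes. The rule also names Gnas, the stimulatory G protein gene, which was not matched to a probe and was not analysed here. Of the kinase regulatory subunit genes that the rule covers, Prkar1a and Prkar2b likewise had no probe matched by symbol.

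The study compared granulosa cells of mice that lack estrogen receptor beta (ERβ, the product of Esr2) with those of heterozygous controls. Female C57/Bl6 mice aged 23 to 25 days, either Esr2+/- (het) or Esr2-/- (null), were given pregnant mare serum gonadotropin (PMSG) for 48 h. PMSG acts like FSH, and both genotypes received it, so no group without hormone enters these comparisons. The cells were pooled by genotype, which gave 1 RNA pool for each, and 2 Agilent arrays, with opposite dye assignment, each compared the null pool with the het pool. The het pool still carries 1 intact Esr2 copy, so it is not a wild type.

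When FSH binds its receptor, the stimulatory G protein activates adenylyl cyclase, and the cAMP that is made releases the catalytic subunits of protein kinase A from its regulatory subunits. The kinase then phosphorylates CREB-family factors, which switch on genes of granulosa cell differentiation such as that of aromatase. Phosphodiesterases end the signal, anchoring proteins confine it, and cAMP also acts through the Epac exchange factors for Rap.

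Array 1 carried the null pool in Cy5 and array 2 carried it in Cy3. All ratios are log2 ratios of null over het after background correction and loess normalisation, so a positive value means a higher level in the null pool. The error after ± is the SD between the 2 arrays, which is technical. Because each genotype was a single pool, the spread between animals is unknown and no p-value is given. In bulk RNA, fewer cells of a type and less RNA per cell cannot be told apart. A gene counted as measured when its probe was well above background in at least 1 pool on both arrays, which held for 18561 genes or unnamed transcripts. The deleted gene's own probe, Esr2, read -0.50 on array 1 and -0.46 on array 2 (mean -0.48 ± 0.03). The sources used here do not say whether that probe lies in the disrupted sequence, so it does not check the labels. All 8 matched granulosa markers were measured in the pools (Amh, Cyp19a1, Esr2, Fshr, Fst, Inha, Inhba and Nr5a2).

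Of the 59 cAMP genes, 48 were measured. The probes of 10 others did not pass the background rule, and the Rgs2 spot on array 2 was flagged by the scanner software as non-uniform. The genes below the background rule were Adcy8, Pde3a, Pde6a, Pde6c, Akap7, Rgs1, Rgs18, Rgs9bp, Rapgef1 and Adcyap1r1, and no fold is given for them. Pde3a encodes the phosphodiesterase known from the oocyte, and its probe failed the background rule in both pools on both arrays. Adcyap1r1 encodes the PACAP receptor, and its probe was well above background only in the het pool on 1 array.

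After loess, the measured cAMP genes lay about as close to equality in the pools as all measured genes. The background offset shrinks the ratios of dim probes, so some differences may be understated. Rgs17, for example, had a mean of 0.23 but 0.51 in the scanner software's ratios, and Rgs7 had -0.07 but -0.43. Those ratios can also differ more between arrays at dim probes. Rgs9 read -0.71 on array 1 and 0.79 on array 2 in them, against -0.26 and 0.31 after loess. The list median in those ratios was 0.013. No cAMP gene reached a mean change of 2-fold with at least 1.5-fold on each array, a rule that 0.0377% of all measured genes passed as higher and 0.0916% as lower in the null pool. A lower threshold asked for a log2 ratio of at least 0.32 in size with 1 sign on both arrays and is called the 0.32 rule here. By it, 1 of 48 genes was higher (Akap12) and 1 was lower (Rgs3). Among all measured genes 1.12% were higher and 0.803% lower by that rule, against 2.08% each way among the cAMP genes. The median ratio of the 48 genes was 0.0051, with 0.02 on array 1 and 0.02 on array 2, and the median over all measured genes was -0.0038. For 45 of the 48 genes (93.8%) the mean ratio lay within 0.25 of equality, against 94.4% of all measured genes.

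**Figure D1:**
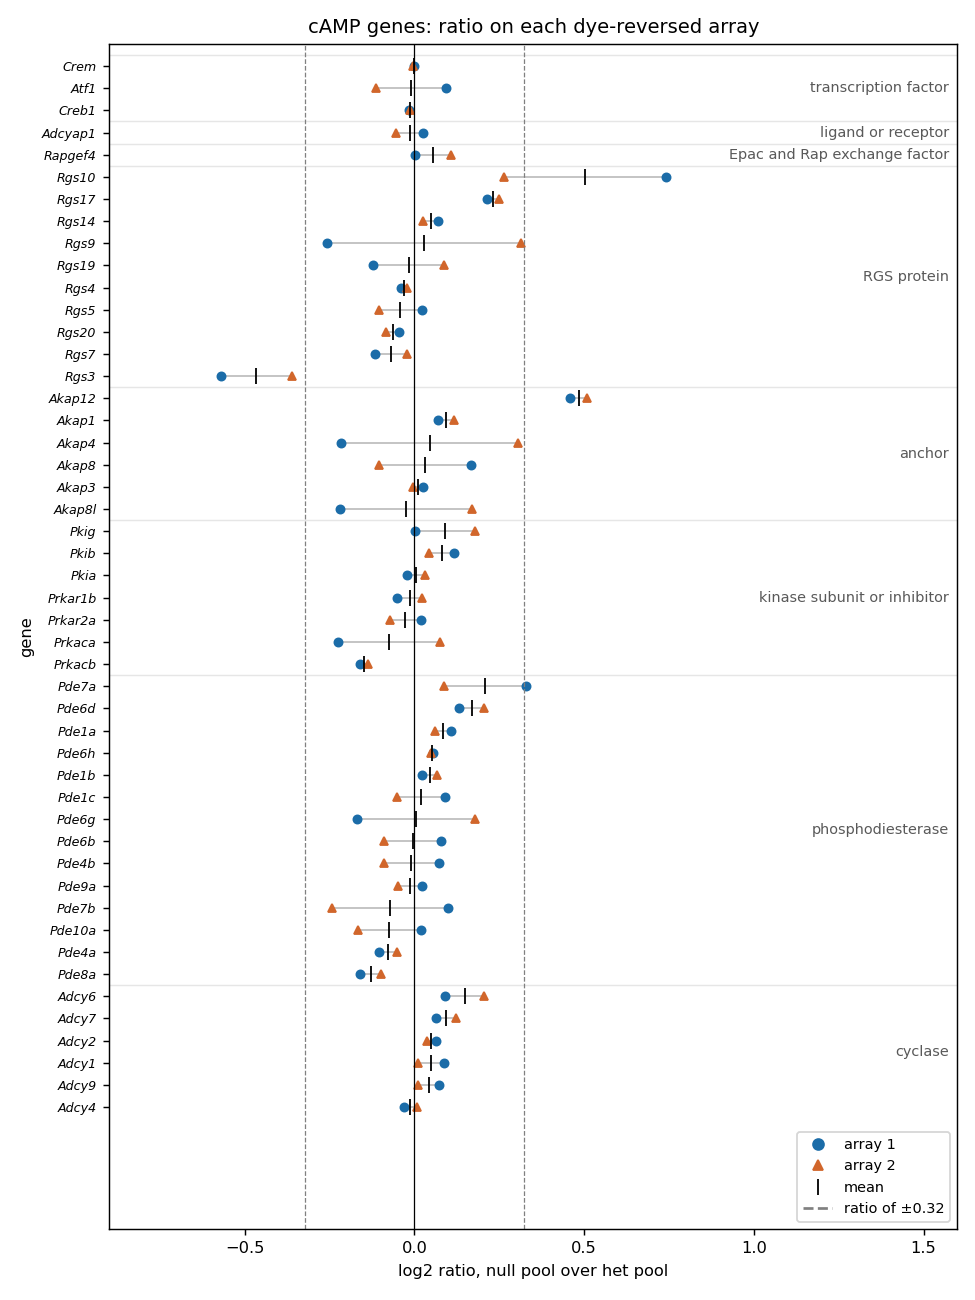
Log2 ratio (null over het) of each of the 48 measured cAMP genes on array 1 (circles) and array 2 (triangles), with the mean as a vertical tick, grouped by role; the dashed lines mark a log2 ratio of 0.32 either way. Only Akap12 and Rgs3 have both arrays beyond a dashed line on the same side.

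The direction was often not the same on both arrays. The arrays gave opposite signs for 21 of the 48 genes (43.8%), against 53% of all measured genes. Both arrays read higher in the null pool for 18 cAMP genes (37.5%), against 22.7% of all measured genes, and both read lower for 9 (18.8%), against 24.3%. The mean ratios had an SD of 0.142 over the 48 genes and 0.136 over all measured genes. The mean of the ratios read as red over green, in which the genotype cancels, had an SD of 0.0985 over the cAMP genes. Over all measured genes it was 0.0974. That mean holds dye effects and the noise between hybridisations together. The median size of the mean null over het ratio was 0.048 over the cAMP genes and 0.044 over all measured genes. When the ratios were read as red over green, unturned for the dye, 0 of the 48 genes passed the 0.32 rule, against 0.0323% of all measured genes in the red direction and 0.329% in the green one. By the 2-fold rule those shares of all genes were 0% and 0.00539%, and again 0 cAMP genes passed.

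**Figure D2:**
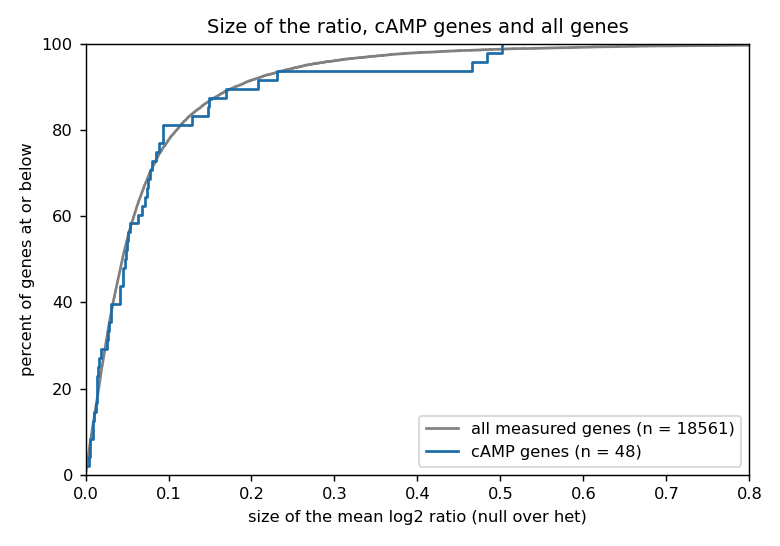
Cumulative percent of genes (vertical axis) whose mean log2 ratio is at or below a given size (horizontal axis), for the 48 cAMP genes and for all 18561 measured genes. The curves lie close together, with 45 of the 48 cAMP genes below 0.25.

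The adenylyl cyclases, which make cAMP, had no gene past the 0.32 rule, and their median ratio was 0.05. The sign was positive on both arrays for 5 of 6 measured genes, against 22.7% of all measured genes, but several values were near 0, such as 0.0097 for Adcy1 on array 2. After loess the gene farthest from equality was Adcy6, a calcium-inhibited cyclase, with 0.09 on array 1 and 0.21 on array 2 (mean 0.15 ± 0.08). In log2 signal Adcy6 read 9.50 and 9.45 in the null pool against 9.42 and 9.24 in the het pool. Within an array the pools differed by at most 0.21. Adcy7 had 0.09, Adcy2 0.05, Adcy1 0.05, Adcy9 0.04 and Adcy4 -0.01. The order depended on the processing. In the scanner software's ratios the dim Adcy7 (0.28) and Adcy2 (0.26) lay farther from equality than Adcy6 (0.16). The cyclase median was 0.11 in those ratios. The Adcy2 probe was well above background in the het pool on only 1 array. Adcyap1, which encodes the cyclase-activating peptide PACAP, had 0.02 on array 1 and -0.05 on array 2.

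The phosphodiesterases, which break down cyclic nucleotides, showed no common direction. Of 14 measured genes, 5 read higher and 2 lower on both arrays, 7 had opposite signs, and none passed the 0.32 rule. Their mean ratios ran from -0.13 to 0.21 with a median of 0.00030. Pde7a, which encodes a cAMP-specific enzyme, had the highest mean, but the arrays differed, with 0.33 on array 1 and 0.09 on array 2. Pde6d, whose product carries prenylated proteins, had 0.13 and 0.21. Pde8a, a cAMP-specific enzyme gene, had the lowest mean, with -0.16 and -0.10. The other cAMP-specific enzyme genes were nearer to equality, with Pde4a at -0.08 ± 0.04, Pde4b at -0.01 ± 0.11 and Pde7b at -0.07 ± 0.24. The calcium-activated enzyme genes Pde1a, Pde1b and Pde1c had 0.09, 0.05 and 0.02. Pde6g, a rod photoreceptor subunit gene, gave -0.17 and 0.18, opposite signs of nearly the same size, so the Cy3 channel was the brighter one on both arrays.

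Of 7 measured genes for subunits and inhibitors of protein kinase A none passed the 0.32 rule. The 4 subunit genes had mean ratios from -0.15 to -0.01 after loess. That shared sign depended on the processing. With median centring Prkaca (0.05) and Prkar2a (0.12) were positive, while Prkacb (-0.10) and Prkar1b (-0.06) stayed negative. The catalytic subunit gene Prkacb read -0.16 on array 1 and -0.14 on array 2 (mean -0.15 ± 0.02). Its log2 signal was 6.52 and 6.54 in the null pool and 6.68 on each array in the het pool, so the arrays gave nearly the same small difference after loess. The scanner software's ratios for Prkacb were -0.49 on array 1 and -0.12 on array 2, so there the arrays differed. The other catalytic subunit gene, Prkaca, had opposite signs after loess, -0.23 and 0.07. In the scanner software's ratios Prkaca read -0.43 and -0.07, negative on both arrays. Its probe was dim, and well above background in the null pool on only 1 array. The regulatory subunit genes Prkar1b (-0.05 and 0.02) and Prkar2a (0.02 and -0.07) had opposite signs after loess as well.

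The heat-stable kinase inhibitors, which bind the free catalytic subunit and carry it out of the nucleus, were measured for all 3 genes. Pkig read 0.00020 on array 1 and 0.18 on array 2, Pkia -0.02 and 0.03, and Pkib 0.12 and 0.04. None of the 3 passed the 0.32 rule. The Pkib and Pkia probes were each well above background in the het pool on only 1 array. In the scanner software's ratios the Pkib mean of 0.08 was 0.44, and the Pkia mean of 0.0048 was -0.06.

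A further regulatory subunit lay outside the symbol rule because the files describe its probes in words only. RII beta is the type II beta regulatory subunit, known from the rat as a product that FSH and cAMP induce in granulosa cells. The AK081805 probe, described as this subunit, was among 26 probes collected by their descriptions after the files were examined. It read 13.50 and 13.67 in log2 signal in the null pool and 13.91 and 14.01 in the het pool. The ratios were -0.42 and -0.34 (mean -0.38 ± 0.05), or 1.30-fold lower in the null pool and past the 0.32 rule. The scanner software gave -0.37 and -0.38 for AK081805. Its ratios with median centring, under which no cAMP gene passed the rule, were not examined. The other probe described as type II beta (M68861.1) read 0.0049 and 0.03, and J02935, described as type II only, read 0.05 and -0.06. Their log2 signals lay between 6.13 and 6.30 in every pool and array, where the background offset shrinks ratios. In the scanner software's ratios, made without that offset, M68861.1 read -0.01 and 0.0009, and J02935 0.08 and -0.27. The difference at AK081805 was thus not seen at M68861.1, a dim probe with the same description. The reason was not tested.

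The promoters of the kinase genes are shown here because they can carry the sequence that CREB and its relatives bind. The cAMP response element is TGACGTCA, and a half-site is TGACG on either strand. RefSeq promoter windows of GRCm38.p6 run from 250 bases before to 50 after an annotated start site, and a gene with alternative starts has several. They were available for 43 of the 59 cAMP genes and 6 of the 7 kinase genes. None of the 76 windows of the cAMP genes held the full element, which 1.79% of all 32851 windows held. A half-site, which the full element also contains, stood in 18 of the 76 windows (23.7%), against 20.8% of all windows. Of the 6 kinase genes with windows, 5 held 6 half-sites. The share of all genes with a half-site was not counted, so this count per gene cannot be set against the share per window. The sites are given below 5′ to 3′ on the strand of the gene with the half-site in capitals.
Pkig, chr2:163693814-163693842, plus strand: gtttgacaaatgTGACGggcctgggatgc
Prkaca, chr8:83972846-83972874, plus strand: gtctgcaactcgCGTCActcatccaggag
Prkaca, chr8:83972960-83972988, plus strand: gggctgcgggggCGTCAcggacagaggac
Prkacb, chr3:146813032-146813060, minus strand: ggggcttgaccgCGTCActtccggcgcgc
Prkar1b, chr5:139150034-139150062, minus strand: tagagggcggagTGACGggcaggaggacg
Prkar2a, chr9:108692127-108692155, plus strand: cgcggccgcgtgCGTCAcaacccgggcgc
The half-sites began 120 and 6 bases before the outer start of Prkaca, 102 before that of Prkacb and 4 before that of Prkar2a. Those of Pkig and Prkar1b began 211 and 49 bases before alternative start sites, which lie 35826 and 702 bases inside the gene.

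Over the 16 measured cAMP genes with a half-site, the mean ratios ran from -0.15 to 0.09 with a median of -0.01. Over the 23 measured genes with windows but no half-site they ran from -0.47 (Rgs3) to 0.50 (Rgs10) with a median of 0.03, and the difference between these sets was not tested. The palindromic estrogen response element, searched on both strands as GGTCA, any 3 bases, then TGACC, stood in 1 of the 76 windows, that of Pde10a, and in 0.07% of all windows. It is shown because Esr2 encodes an estrogen receptor, and its window belongs to an alternative start 324798 bases inside the gene.
Pde10a, chr17:8849994-8850022, plus strand: gggcggttGGTCAACCTGACCagagggag
Pde10a, which encodes an enzyme that breaks down both cAMP and cyclic GMP, read 0.02 on array 1 and -0.17 on array 2. A match of letters is a description and not a binding site.

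Among the anchoring proteins, Akap12 was the one gene past the 0.32 rule. Akap12 (NM_031185, GRCm38.p6 chr10:4266329-4359471) encodes gravin, a scaffold that binds protein kinase A and protein kinase C at the cell membrane. Its log2 signal was 9.41 on array 1 and 9.38 on array 2 in the null pool, against 8.95 and 8.87 in the het pool. The readings within a pool differed by less than 0.10. The ratios were 0.46 and 0.51 (mean 0.48 ± 0.04), or 1.40-fold higher in the null pool, and 0.54 in the scanner software's ratios. With median centring in place of loess Akap12 read 0.85 on array 1 and 0.02 on array 2, and no longer passed the rule. The other 5 measured anchor genes had mean ratios from -0.03 to 0.09, and 4 of them had opposite signs on the arrays. They were Akap1, a mitochondrial anchor gene (0.07 and 0.12), the nuclear anchor genes Akap8 (0.17 and -0.10) and Akap8l (-0.22 and 0.17), and the sperm tail anchor genes Akap3 (0.02 and -0.0056) and Akap4 (-0.22 and 0.31).

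**Figure D3:**
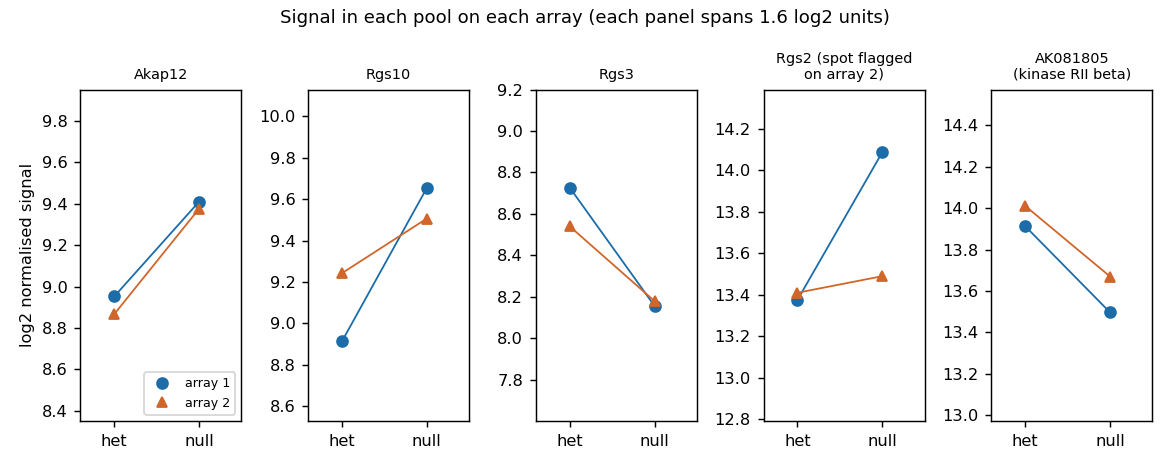
Log2 normalised signal in the het and null pools on array 1 (circles) and array 2 (triangles) for Akap12, Rgs10, Rgs3, Rgs2 and the AK081805 probe described as RII beta; each line joins the pools on 1 array and every panel spans the same range. Both lines rise for Akap12 and both fall for Rgs3 and AK081805, whereas those of Rgs10 and Rgs2 differ in slope.

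RGS proteins speed the return of G proteins to their inactive state, and their genes had the widest spread of the cAMP roles. The 10 measured RGS genes ran from -0.47 to 0.50 with a median of -0.02. Rgs3 (NM_019492, chr4:62559835-62703019), whose product acts on inhibitory and Gq-type G proteins, was the one gene past the rule. Its log2 signal was 8.16 and 8.18 in the null pool and 8.73 and 8.54 in the het pool. The ratios were -0.57 and -0.36 (mean -0.47 ± 0.15), or 1.38-fold lower in the null pool. The scanner software gave -0.58. Both probes of BY208206, described in words as PDZ-RGS3 protein, had opposite signs on the arrays, with means of -0.06 and -0.02 at log2 signals of 6.08 to 6.93. In the scanner software's ratios the dimmer probe read -0.70 and 0.0005, and the other -0.28 and 0.13. The dimmer one was well above background in the null pool on only 1 array. For Rgs3 itself the arrays read -0.26 and -0.73 with median centring, so Rgs3 did not pass the rule there.

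Rgs10 (NM_026418, chr7:128373621-128419506) had the highest mean of all 48 genes but differed between arrays. Its product acts on inhibitory G proteins and is known from immune cells and microglia. The log2 signal was 9.65 and 9.51 in the null pool against 8.91 and 9.24 in the het pool. The ratios were 0.74 on array 1 and 0.26 on array 2 (mean 0.50 ± 0.34), and array 2 lay below 0.32. With median centring array 2 read -0.25 for Rgs10.

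Rgs2, whose product acts on Gq-type G proteins, had a flagged spot on array 2 and entered no count. It read 0.71 on array 1 and, from the flagged spot, 0.08 on array 2, with log2 signals of 14.09 and 13.49 in the null pool and 13.37 and 13.41 in the het pool. Rgs17, whose product acts on inhibitory G proteins, read 0.21 and 0.25 (mean 0.23 ± 0.03), with 0.51 in the scanner software's ratios. By those ratios Rgs17 (0.41 and 0.61) passed the 0.32 rule as higher and Rgs7 (-0.42 and -0.44), a gene of the nervous system, as lower. The Rgs7 probe was dim, at log2 signals of 6.14 to 6.26. With median centring Rgs7 read -0.59 on array 1 and 0.61 on array 2. Rgs9, whose product acts in photoreceptors and striatum, gave -0.26 and 0.31, opposite signs of nearly the same size. The other 5 RGS genes had mean ratios between -0.06 and 0.05.

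**Figure D4:**
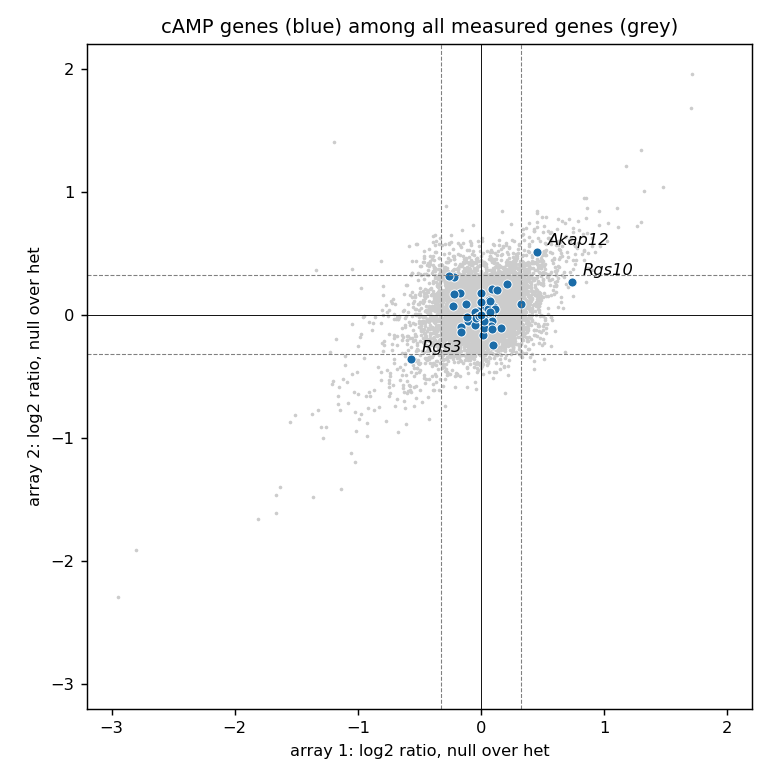
Log2 ratio (null over het) on array 1 (horizontal axis) against array 2 (vertical axis) for all 18561 measured genes (grey) and the 48 cAMP genes (blue); dashed lines mark a log2 ratio of 0.32 either way. Akap12 lies in the upper right corner region and Rgs3 in the lower left one, while Rgs10 and Pde7a pass the line on array 1 alone.

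The measured effector genes further down were near equality after loess. Rapgef4, which encodes the cAMP-activated Rap exchange factor Epac2, read 0.0016 and 0.11. Its log2 signals were dim, at 6.40 to 6.67, and the scanner software's ratios were -0.07 and 0.40. Among the probes described in words as exchange factors, BC020532 read higher on both arrays, as given below, and BC025553 had opposite signs. The mean ratios of the 3 transcription factor genes lay within 0.02 of equality. Creb1 read -0.01 on both arrays, Crem -0.00090 and -0.0041, and Atf1 0.09 and -0.11. Their log2 signals differed between pools by at most 0.11 on either array.

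The genes around the pathway were read from lists chosen with earlier results of these data known. Of 12 measured receptors that couple to the stimulatory G protein none passed the 0.32 rule, and the median was -0.03. Of 14 measured G protein subunit genes none passed, with a median of -0.02, and of 3 measured CREB partners none passed, with a median of -0.01. Of 18 measured genes that cAMP induces in granulosa cells, 4 passed as lower in the null pool and 1 as higher. Among all measured genes 0.803% were lower and 1.12% higher by that rule. The lower genes were Cyp19a1 (aromatase, -1.13 and -1.41), Inhba (inhibin beta A, -1.51 and -0.81), Prlr (prolactin receptor, -1.14 and -0.77) and Cyp11a1 (side-chain cleavage enzyme, -1.03 and -0.79). The higher gene was Sgk1, a kinase gene, at 0.56 and 0.33.

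**Figure D5:**
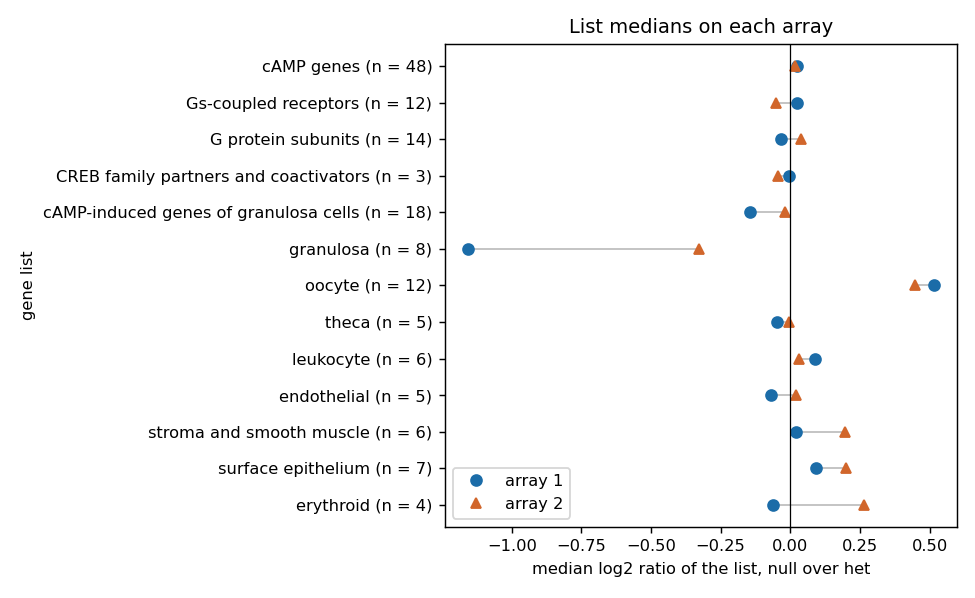
Median log2 ratio (null over het) of the measured genes of each list on array 1 (circles) and array 2 (triangles), for the 48 cAMP genes, 4 lists of pathway neighbours and 8 lists of cell type markers. The cAMP genes sit at 0.02 on both arrays, the oocyte markers at 0.52 and 0.45, and the granulosa markers at -1.16 and -0.33.

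Markers of several cell types also differed between the pools. Of all measured genes 22.7% read higher on both arrays, 1.12% passed the 0.32 rule as higher and 0.803% as lower. For all 12 measured oocyte markers both arrays read higher in the null pool, and 6 of them passed the 0.32 rule. Their summed normalised signal was 17163 and 14228 in the null pool and 9714 and 9889 in the het pool. Of 6 measured leukocyte markers 4 read higher on both arrays, but Cd14 (0.0007 and 0.02) and Laptm5 (0.0045 and 0.04) lay near equality. Cd68 and Csf1r had opposite signs, and the list median was 0.02. Only the macrophage lysozyme gene Lyz2 passed the rule. The leukocyte sums were 1028 and 1068 in the null pool against 932 and 1029 in the het pool. Of 7 measured surface epithelium markers 5 read higher on both arrays and 2 of these passed (Cdh1 and Epcam), whereas Krt8 (-0.32 and -0.20) and Krt18 (-0.01 and -0.07) read lower. Of 6 stroma and smooth muscle markers 4 read higher on both arrays and 1 passed (Dcn), while Acta2 and Tagln had opposite signs, and the sums had null over het folds of 0.88 and 1.18. No theca or endothelial marker passed, and their list medians were -0.03 and -0.02. The erythroid sums had folds of 0.60 on array 1 and 2.05 on array 2, with Hba-a1 at -1.19 and 1.40. Of 8 measured granulosa markers 4 passed as lower (Cyp19a1, Esr2, Fst and Inhba), and the sums were 10992 and 13681 in the null pool against 27789 and 20934 in the het pool. Inhba was the brightest of them, at log2 signals of 12.65 and 12.87 in the null pool and 14.16 and 13.68 in the het pool. Cyp19a1, Inha, Inhba and Nr5a2 stand in the list of cAMP-induced genes as well, so these lists overlap. Amh read higher on both arrays (0.13 and 0.42), and Inha had opposite signs (-1.34 and 0.36). The part of these cells in the ratios of Akap12, Rgs10, Rgs3 and AK081805 was not tested.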

How the data were processed

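RNA of 1 Esr2+/- and 1 Esr2-/- granulosa cell pool was hybridised to 2 dye-reversed arrays. Per the labels' protocols, cRNA was labelled with Cy3 or Cy5 from 500 ng of total RNA, and 750 ng per dye was hybridised for 17 h. The deposited scanner files hold the intensity of each spot and its surroundings in both channels, from Agilent Feature Extraction A.7.5.1 per the file headers. Their LogRatio is, per the file headers, log10 of red over green after background subtraction with spatial detrending and dye normalisation. The deposited series table holds log2 values of red over green, within 0.001 of the scanner ratio for 99.8% of matched spots on each array.

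In R 4.3.3 with limma 3.58.1, mean intensities were corrected with normexp (offset 50) and each array was loess-normalised, giving control spots weight 0. This offset shrinks the ratios of dim spots. Signals per pool are given after Aquantile scaling between arrays. Flagged outlier spots (58 and 95) were left out. Array 2 was turned in sign, and the mean of the pair was taken as 1 technical replicate set. Accessions matched RefSeq (GRCm38.p6) for 8947 probes, a symbol in the description named 407 more, and 11514 kept the name in the files. The brightest probe stood for a gene. The depth is set by the number of arrays, and the SD covers hybridisation and dye only.

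The members, lists, thresholds and the rule for named genes were chosen with earlier results of these data known. Values per array are given for genes past the 0.32 rule, those with a mean of at least 0.25 and 1 sign, the kinase, CREB-family and PACAP genes, and in addition those at the ends of each role, which were chosen after their values were seen. The call rules were checked on simulated data. Alternatives were no background subtraction, median centring, the scanner's and series table's ratios, 2 other filters on dim probes, averaging the probes of a gene, and each array alone.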

Additional observations from a re-analysis of the deposited data

How the results depend on the processing

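The count of cAMP genes past the 2-fold rule stayed at 0 in every alternative, each array alone included. The 1 higher and 1 lower gene by the 0.32 rule became 0 and 0 with median centring, and 2 and 2 with the scanner software's and the series table's ratios, which are the same ratios. All genes moved too, from 1.12% higher and 0.803% lower to 0.426% and 0.523% with median centring and to 2.59% and 1.6% with the scanner's ratios. Leaving out 1 array gave 1 to 3 higher and 1 to 1 lower; the 3 with array 1 alone were Akap12, Pde7a and Rgs10. Of all genes, 3.07% were then higher and 3.23% lower with array 1 alone, and 3.23% and 1.52% with array 2 alone. A rule on 1 array is easier to pass than a rule on both. The list median of 0.0051 became 0.02392 with median centring and 0.013 with the scanner's and series table's ratios (0.01299 and 0.01298), and ranged from 0.01704 to 0.02296 with 1 array left out; the causes of the other shifts were not tested. Neither called gene changed direction in its mean in any alternative. Of the mean ratios of 14 named genes, 7 moved by more than the SD between arrays with median centring, 6 with the scanner's ratios and 3 without background subtraction. Signal over background limits the dim genes, such as Prkacb and Pkib. No paired analysis was possible because each genotype gave a single pool.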

Other observations

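Besides the kinase subunit, 26 probes in all were collected because the files describe a cAMP protein in words, and 23 of them were measured. They were collected after the files were examined but by their descriptions alone. Their median ratio was 0.0079, with 7 higher on both arrays, 6 lower on both and 10 of opposite sign (43.5%, against 53% of all measured genes). By the 0.32 rule 2 were lower (8.70%, against 0.803% of all measured genes) and 0 were higher. Besides AK081805, the AK043268 probe, described as similar to human RGS13, read 8.50 and 8.64 in log2 signal in the null pool and 8.88 and 9.25 in the het pool. Its ratios were -0.38 and -0.61 (mean -0.49 ± 0.17), so it lay farther below equality than Rgs3 in its mean. The scanner software gave -0.47 and -0.68. Median centring was not examined for AK043268 either.

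The BC020532 probe, described as similar to a cAMP-regulated exchange factor, read 0.26 and 0.28 (mean 0.27 ± 0.02), higher on both arrays but below 0.32. In the scanner software's ratios it read 0.41 and 0.50 and so passed the 0.32 rule there. Both probes described as phosphodiesterase 4D, an enzyme known to be induced by cAMP, lay near equality, with AK081466 at 0.07 and -0.07 and AK053713 at 0.07 and 0.04. The phosphodiesterase 3B probe AJ132271 read 0.04 and -0.01. The AF305427 probe, described as a regulatory subunit of the kinase, read -0.16 and -0.08.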
